A study of Mus musculus with 9 samples.

Results

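The genes described here are 10 genes used as labels of retinal ganglion cells and of their axons: Nefl, Nefm, Nefh, Nrn1, Sncg, Stmn2, Thy1, Rbpms, Pou4f1 and Slc17a6. They were taken by gene symbol from a table of 54532 mouse genes, and all 10 were found. The set was chosen with earlier results of these data known, so its counts and ranks below are descriptions. RNA was sequenced from choroidal-retinal flat mounts of C57BL/6 mice in 3 groups of 3 libraries. The BetP-Gel@Ran group had received an intravitreal injection of BetP-Gel and was sampled 3 months later; its titles name Ran as well, for ranibizumab, an antibody fragment against VEGF-A, whereas its treatment entry names the gel alone. The CNV group is titled as wet age-related macular degeneration, the form with vessels growing from the choroid. The untreated mice are the third group. Whether CNV was also present in the BetP-Gel@Ran mice is not stated in the labels, nor how CNV was induced, nor when the CNV and untreated mice were sampled, so time and treatment cannot be told apart. Age, sex and pooling are not stated either, nor whether replicates were separate animals, and p-values therefore measure only the spread between these libraries, which may be technical.

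Retinal ganglion cells are the output neurons of the retina. They lie in its innermost cell layer and send long axons through the optic nerve, and those axons are filled with neurofilaments, polymers of light, medium and heavy subunits that set axon calibre. Loss of ganglion cell transcripts is commonly used to follow damage to these cells, but none of the 10 genes is made by ganglion cells alone. In RNA from whole tissue, fewer cells of a type and less RNA per cell cannot be told apart, and this holds for every value below.

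Promoter windows from RefSeq, reaching from 250 bases before to 50 bases after the annotated start on GRCm38.p6, could be matched by symbol to 3 of the 10 genes, Pou4f1, Slc17a6 and Sncg, with 4 windows in all. These genes fell in CNV and were higher in BetP-Gel@Ran than in CNV, and their windows were searched for the letters AATTAAT, a motif of the POU4F type (ATTAATT on the other strand), and for CAGCTG, an E-box that reads alike on both strands; the motifs do not overlap in these windows. Capitals mark the matches in the windows printed here, each 5′ to 3′ on the gene's strand. The Pou4f1 window lies on the minus strand at chr14:104467950-104468249, the second Slc17a6 window on the plus strand at chr7:51624387-51624686 and the Sncg window on the minus strand at chr14:34374620-34374919.
Pou4f1: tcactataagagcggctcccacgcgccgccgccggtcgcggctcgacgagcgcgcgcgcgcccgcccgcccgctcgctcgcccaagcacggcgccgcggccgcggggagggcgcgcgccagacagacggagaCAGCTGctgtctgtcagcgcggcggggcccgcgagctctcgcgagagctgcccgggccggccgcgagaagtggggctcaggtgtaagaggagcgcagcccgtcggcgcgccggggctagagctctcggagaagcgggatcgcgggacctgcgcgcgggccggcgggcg
Slc17a6: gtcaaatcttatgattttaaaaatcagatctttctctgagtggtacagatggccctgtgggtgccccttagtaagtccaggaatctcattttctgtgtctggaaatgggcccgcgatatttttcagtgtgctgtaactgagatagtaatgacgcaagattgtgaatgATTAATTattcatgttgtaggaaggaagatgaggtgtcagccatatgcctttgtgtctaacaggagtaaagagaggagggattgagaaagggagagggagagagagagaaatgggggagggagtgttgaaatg
Sncg: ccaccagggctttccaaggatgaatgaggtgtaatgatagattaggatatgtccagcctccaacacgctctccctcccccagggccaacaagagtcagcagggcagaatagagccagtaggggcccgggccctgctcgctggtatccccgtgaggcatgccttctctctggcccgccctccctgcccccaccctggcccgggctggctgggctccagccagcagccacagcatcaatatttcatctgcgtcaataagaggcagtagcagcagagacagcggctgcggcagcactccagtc
The Pou4f1 window, with 78.3% G and C, held 1 E-box starting at position -118 from the start. The second Slc17a6 window, with 43.0% G and C, held 1 match to the POU4F-type letters at position -83, and the first Slc17a6 window, upstream of it, held neither motif. The Sncg window held neither. Across 32851 windows of 300 bases, 2.63% held the POU4F-type letters and 16.3% the E-box, so a match is a description of these letters only.

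Each library held between 16990118 and 18753737 reads on genes, recovered from the deposited FPKM (fragments per kilobase of gene, scaled to library depth), and the 10 genes had from 52 reads (Pou4f1 in a CNV library) to 5101 reads (Nefl in an untreated library). Besides the neural retina, the mounts held transcripts of the cornea, lens and skeletal muscle, whose sums differed between some of the groups. The summed FPKM of 5 cornea markers was 11794 to 14231 in BetP-Gel@Ran, 7523 to 9049 in CNV and 16205 to 19120 in untreated libraries. That of 7 skeletal muscle markers was 922 to 1128 in BetP-Gel@Ran, 670 to 1141 in CNV and 4328 to 4746 in untreated libraries. That of 8 lens markers was 880 to 3549 in BetP-Gel@Ran, 14.9 to 90.7 in CNV and 251 to 7892 in untreated libraries, with the highest sum in untreated replicate 3. Untreated replicates 1 and 2, at 310 and 251, lay below every BetP-Gel@Ran library. FPKM are shares of a library, and the part of these other tissues in the results below was not tested. Untreated replicate 3 also stood apart for the genes described here: it had the lowest untreated value of all 10.

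All 3 neurofilament subunits fell in CNV, Nefl and Nefh were called higher in BetP-Gel@Ran than in CNV, and all 3 were called lower in BetP-Gel@Ran than in untreated libraries. Nefl, the light subunit on which the polymer is built, lies on chromosome 14 at 68083863 to 68089095 of mm10 (plus strand). It measured 26.9, 33.6 and 31.5 FPKM in BetP-Gel@Ran, 12.7, 10.6 and 12.8 FPKM in CNV and 69.8, 84.98 and 45.7 FPKM in untreated libraries. The 3 groups did not overlap, and the BetP-Gel@Ran libraries lay between the others. On the log2(FPKM + 1) scale Nefl fell by 2.34 in CNV against untreated (SE 0.20, adjusted p = 3.42e-05; limma, two-sided, Benjamini-Hochberg adjusted over 14086 genes). It rose by 1.28 in BetP-Gel@Ran against CNV (limma adjusted p = 0.00781) and fell by 1.06 in BetP-Gel@Ran against untreated (limma adjusted p = 0.00374).

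Nefh, the heavy subunit whose long tail is phosphorylated in mature axons, lies on chromosome 11 at 4938754 to 4948064 (minus strand). It measured 8.34, 8.75 and 8.56 FPKM in BetP-Gel@Ran, 3.03, 2.34 and 2.43 FPKM in CNV and 16.8, 21.95 and 11.3 FPKM in untreated libraries, again without overlap. The log2 change was -2.25 in CNV against untreated (SE 0.19, limma adjusted p = 3.48e-05) and 1.41 in BetP-Gel@Ran against CNV (limma adjusted p = 0.00498), the largest rise among the 10 genes. Nefm, the medium subunit, lies next to Nefl on chromosome 14 at 68082590 to 68124846 (minus strand). It measured 3.997, 3.75 and 3.87 FPKM in BetP-Gel@Ran, 1.501, 1.26 and 1.82 FPKM in CNV and 9.40, 15.4 and 5.01 FPKM in untreated libraries. The BetP-Gel@Ran libraries were tight and clear of both other groups, whereas the untreated ones were spread widely. Nefm fell by 2.002 in CNV against untreated (SE 0.29, limma adjusted p = 0.000761). Its log2 difference of 0.95 between BetP-Gel@Ran and CNV (95% interval 0.29 to 1.62) missed the threshold of 0.05, with a limma adjusted p of 0.0624. That call was gained without untreated replicate 2 (adjusted p = 0.0220) or replicate 3 (adjusted p = 0.0122), with a pseudocount of 0.1 (0.0345), with a filter of 5 FPKM (0.0473), with quantile normalization (0.0473) and in a fit of these 2 groups alone (0.00844).

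Against untreated, Nefh fell by 0.84 in BetP-Gel@Ran (limma adjusted p = 0.00907) and Nefm by 1.05 (limma adjusted p = 0.0238). The Nefm call was lost without any single BetP-Gel@Ran library or without untreated replicate 1 (adjusted p 0.0539 to 0.0640), and also with no filter (0.0510), with FPKM divided by its sum (0.0550) and in the 2-group fit (0.0576). The last exon of transcript Nefm-202 (chromosome 14, 68082590 to 68084970) shares 1108 exonic bases with Nefl on the opposite strand, 32.8% of the exonic bases of Nefl and 19.2% of those of Nefm. The library kit does not mark strand, and the handling of reads in such overlaps is not stated, so the split of reads between Nefl and Nefm is uncertain. Nefh shares no exonic base with another gene. The ratio of Nefm to Nefl FPKM was 0.111 to 0.149 in BetP-Gel@Ran, 0.118 to 0.142 in CNV and 0.110 to 0.181 in untreated libraries, so the groups overlapped.

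**Figure D1:**
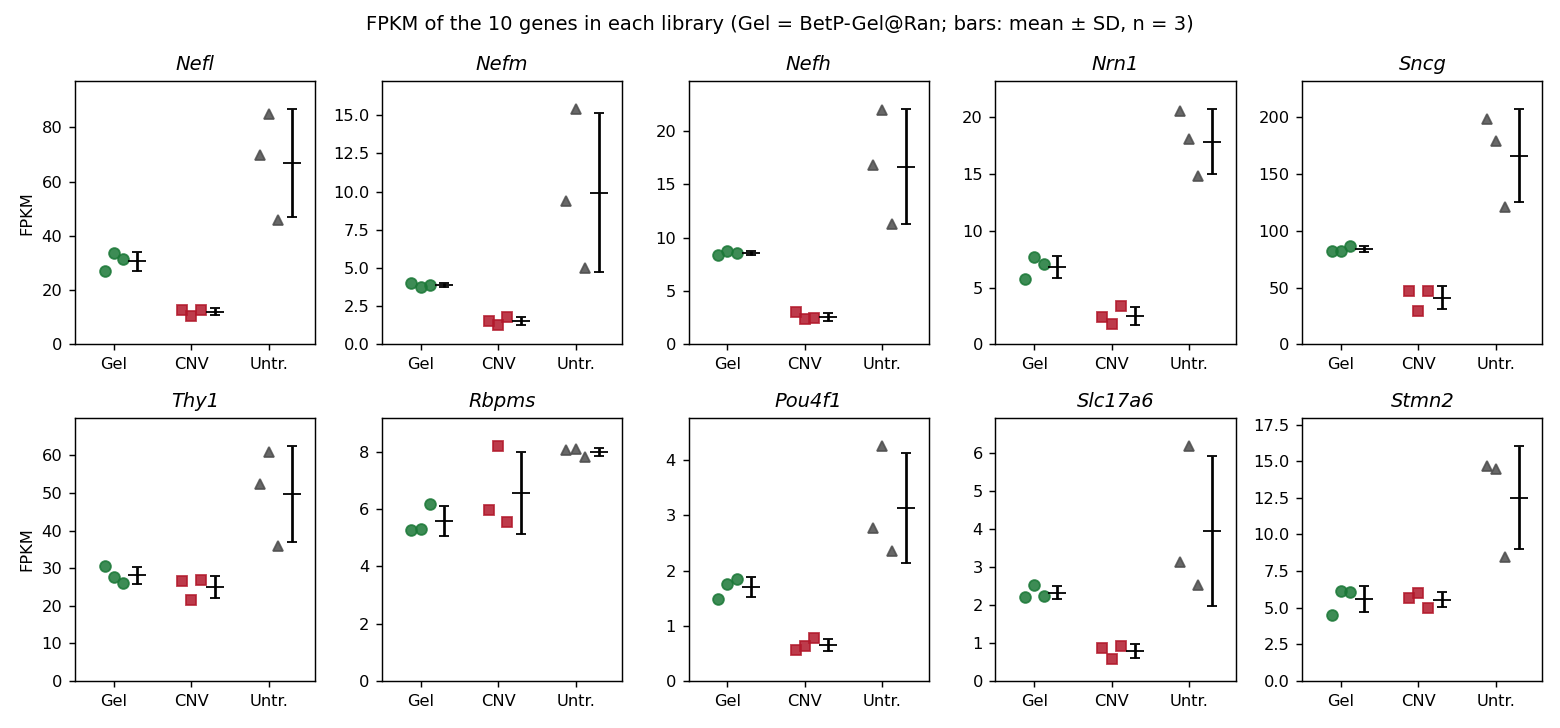
FPKM of each of the 10 genes in the 9 libraries (points; BetP-Gel@Ran, CNV and untreated from left to right), with the mean ± SD of the 3 libraries of each group beside them; each panel has its own axis from 0. Nefl, Nefm, Nefh, Nrn1, Sncg and Pou4f1 sit in 3 separate bands with BetP-Gel@Ran in the middle, while the BetP-Gel@Ran and CNV points of Thy1, Rbpms and Stmn2 overlap.

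Among the genes of axon growth and synaptic ends, Nrn1 and Sncg were called higher in BetP-Gel@Ran than in CNV, as Nefl and Nefh were. Stmn2, which fell less in CNV, was not. Nrn1 encodes neuritin, a surface-anchored protein that promotes neurite growth, and lies on chromosome 13 at 36725361 to 36735131 (minus strand). It measured 5.76, 7.66 and 7.04 FPKM in BetP-Gel@Ran, 2.40, 1.77 and 3.39 FPKM in CNV and 20.5, 18.1 and 14.8 FPKM in untreated libraries, with no overlap. Its change of -2.43 in CNV against untreated (SE 0.18, limma adjusted p = 1.75e-05) was the largest fall of the set. Nrn1 rose by 1.17 in BetP-Gel@Ran against CNV (limma adjusted p = 0.00733) and fell by 1.26 against untreated (limma adjusted p = 0.00101). It shares 501 exonic bases, 22.3% of its own, with Fars2 on the opposite strand, so part of its reads may belong to that gene.

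Sncg, gamma-synuclein, is abundant in ganglion cell bodies and axons and lies on chromosome 14 at 34370274 to 34374789 (minus strand). It had the highest FPKM of the set, 82.4, 82.2 and 86.7 in BetP-Gel@Ran, 46.9, 29.8 and 47.1 in CNV and 199, 179 and 121 in untreated libraries. The 3 groups were again separate. Sncg fell by 1.98 in CNV against untreated (SE 0.21, limma adjusted p = 0.000113), rose by 1.03 in BetP-Gel@Ran against CNV (limma adjusted p = 0.0177) and fell by 0.95 in BetP-Gel@Ran against untreated (limma adjusted p = 0.00816). The rise was lost without BetP-Gel@Ran replicate 2 (adjusted p = 0.0591), BetP-Gel@Ran replicate 3 (0.0566) or CNV replicate 2 (0.0501).

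Stmn2, a stathmin that binds tubulin in growing and regenerating axons, lies on chromosome 3 at 8509360 to 8561606 (plus strand). It measured 4.53, 6.14 and 6.05 FPKM in BetP-Gel@Ran, 5.63, 5.99 and 4.98 FPKM in CNV and 14.6, 14.4 and 8.46 FPKM in untreated libraries. The BetP-Gel@Ran and CNV libraries lay on top of each other, below every untreated library. Stmn2 fell by 1.01 in CNV against untreated (SE 0.19, limma adjusted p = 0.00233) and by 1.01 in BetP-Gel@Ran against untreated (limma adjusted p = 0.00391). Between BetP-Gel@Ran and CNV its log2 difference was 0.00, with a 95% interval of -0.42 to 0.43 (limma adjusted p = 0.994).

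The remaining genes are used to identify ganglion cells, and Pou4f1 and Slc17a6 were called higher in BetP-Gel@Ran than in CNV, whereas Thy1 and Rbpms were not. Pou4f1 encodes BRN3A, a transcription factor of ganglion cells, and lies on chromosome 14 at 104461676 to 104467999 (minus strand). It was low, at 1.49, 1.75 and 1.84 FPKM in BetP-Gel@Ran, 0.562, 0.634 and 0.769 FPKM in CNV and 2.76, 4.25 and 2.36 FPKM in untreated libraries. The groups did not overlap. Pou4f1 fell by 1.29 in CNV against untreated (SE 0.15, limma adjusted p = 0.0002), rose by 0.70 in BetP-Gel@Ran against CNV (limma adjusted p = 0.0219) and fell by 0.59 in BetP-Gel@Ran against untreated (limma adjusted p = 0.0163). The call of the rise was lost without BetP-Gel@Ran replicate 2 or 3, or CNV replicate 1 or 2 (adjusted p 0.0708 to 0.0772), and with no filter (0.0528). The call against untreated was lost without BetP-Gel@Ran replicate 1 (0.0530).

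Slc17a6 encodes VGLUT2, which loads glutamate into the synaptic vesicles of ganglion cells, and lies on chromosome 7 at 51622006 to 51671119 (plus strand). It measured 2.21, 2.52 and 2.25 FPKM in BetP-Gel@Ran, 0.860, 0.581 and 0.924 FPKM in CNV and 3.14, 6.18 and 2.51 FPKM in untreated libraries. BetP-Gel@Ran was clear of CNV but overlapped untreated, where replicate 3 fell just under the highest BetP-Gel@Ran library. Slc17a6 fell by 1.40 in CNV against untreated (SE 0.22, limma adjusted p = 0.00101) and rose by 0.90 in BetP-Gel@Ran against CNV (limma adjusted p = 0.0321). That rise rested on most single libraries: it was lost without any 1 of the BetP-Gel@Ran libraries, without CNV replicate 1 or 2 (adjusted p 0.0661 to 0.113) and with no filter (0.0766). Its log2 difference of -0.50 between BetP-Gel@Ran and untreated (95% interval -1.01 to 0.00) was not called (limma adjusted p = 0.112), but was called at -0.72 without untreated replicate 3 (adjusted p = 0.0345).

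Thy1, a surface glycoprotein that is an early marker lost from injured rodent ganglion cells and is also made by T cells and fibroblasts, lies on chromosome 9 at 44043384 to 44048579 (plus strand). It measured 30.6, 27.7 and 25.9 FPKM in BetP-Gel@Ran, 26.5, 21.5 and 26.8 FPKM in CNV and 52.5, 60.9 and 35.9 FPKM in untreated libraries. BetP-Gel@Ran and CNV overlapped, both below untreated. Thy1 fell by 0.94 in CNV (SE 0.17, limma adjusted p = 0.00222) and by 0.77 in BetP-Gel@Ran (limma adjusted p = 0.00896), each against untreated. The difference of 0.17 between BetP-Gel@Ran and CNV (95% interval -0.22 to 0.56) was not called (limma adjusted p = 0.536). None of 9 T cell markers reached the filter, their sum being 2.22 to 3.08 FPKM in BetP-Gel@Ran, 3.30 to 3.47 FPKM in CNV and 1.49 to 1.93 FPKM in untreated libraries. The sum of 8 fibroblast markers was 802 to 937 FPKM in BetP-Gel@Ran, 558 to 746 FPKM in CNV and 1077 to 1238 FPKM in untreated libraries, the same order as the ganglion cell genes, and its part in the Thy1 values was not tested.

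Rbpms, an RNA-binding protein found in ganglion cells and also in smooth muscle, lies on chromosome 8 at 33782643 to 33929863 (minus strand). It measured 5.27, 5.31 and 6.20 FPKM in BetP-Gel@Ran, 5.97, 8.21 and 5.55 FPKM in CNV and 8.07, 8.11 and 7.83 FPKM in untreated libraries. CNV replicate 2 lay above every other library, so CNV overlapped untreated. The other CNV libraries lay within the BetP-Gel@Ran range, so CNV overlapped that group too. Its log2 difference of -0.27 in CNV against untreated (95% interval -0.54 to 0.01) was not called (limma adjusted p = 0.105), but without CNV replicate 2 it was -0.41 and called (adjusted p = 0.00673). Rbpms fell by 0.45 in BetP-Gel@Ran against untreated (limma adjusted p = 0.0191), a call lost without BetP-Gel@Ran replicate 1 or 2 or untreated replicate 1 or 2 (adjusted p 0.0545 to 0.0600). None of 5 smooth muscle and pericyte markers tested was called by limma in CNV against untreated, and 1 was lower at an unadjusted p under 0.05. In BetP-Gel@Ran 1 of the 5 was called lower against untreated, with a list median of -0.34, where 18.1% of all genes were called lower. Against CNV 1 was called higher, where 5.81% of all genes were, and none lower. At an unadjusted p under 0.05 by limma, 1 was higher and 1 lower against CNV. Their list of 7 genes summed to 75.9 to 103 FPKM in BetP-Gel@Ran, 98.3 to 150.4 FPKM in CNV and 84.7 to 132 FPKM in untreated libraries, overlapping in all pairs of groups.

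Counted together, 9 of the 10 genes fell in CNV against untreated by limma, all but Rbpms, and none rose, also at an unadjusted p under 0.05 and with limma voom on whole reads. Of all tested genes 22.1% were called lower, 22.5% higher and 44.6% in either direction. The same 9 had CNV libraries wholly below the untreated ones, as did 26.7% of all genes, while 27.7% lay wholly above. The median log2 change of the 10 genes was -1.69, against 0.01 over all genes, and Nrn1, Nefl, Nefh, Nefm and Sncg ranked 59, 63, 79, 108 and 111 from the lowest change among 14086 genes. All 10 passed the filter of 1 FPKM in at least 3 of the 9 libraries. Pou4f1 and Slc17a6 reached 1 FPKM in no CNV library, so they passed through the other groups, and the filter favoured a fall in CNV for them. The 9 falls were called whichever library was left out.

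In BetP-Gel@Ran against CNV, 6 of the 10 genes were called higher and none lower, where 5.81% of all genes were called higher, 8.27% lower and 14.1% in either direction. None was lower at an unadjusted p under 0.05 or with limma voom either. In 7 genes, the 6 and Nefm, every BetP-Gel@Ran library was above every CNV library, as in 18.3% of all genes, while in 18.6% every one was below. The median log2 change of the 10 genes was 0.93, against 0.00 over all genes, and Nefh, Nefl and Nrn1 ranked 28, 32 and 44 from the highest change. Nefl, Nefh and Nrn1 were called under all 18 alternative settings, with adjusted p up to 0.0387, 0.0271 and 0.0375. The count of 6 dropped to 3 without BetP-Gel@Ran replicate 2, BetP-Gel@Ran replicate 3 or CNV replicate 2. In BetP-Gel@Ran against untreated, 9 of the 10 were called lower, all but Slc17a6, where 18.1% of all genes were called lower, 16.1% higher and 34.2% in either direction. The same 9 had BetP-Gel@Ran libraries wholly below the untreated ones, as did 25.4% of all genes, while 25.3% lay wholly above. The median log2 change of the 10 genes was -0.90, against -0.01 over all genes. That count was 6 without BetP-Gel@Ran replicate 1. The comparisons share libraries, so they are set side by side and not correlated.

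**Figure D2:**
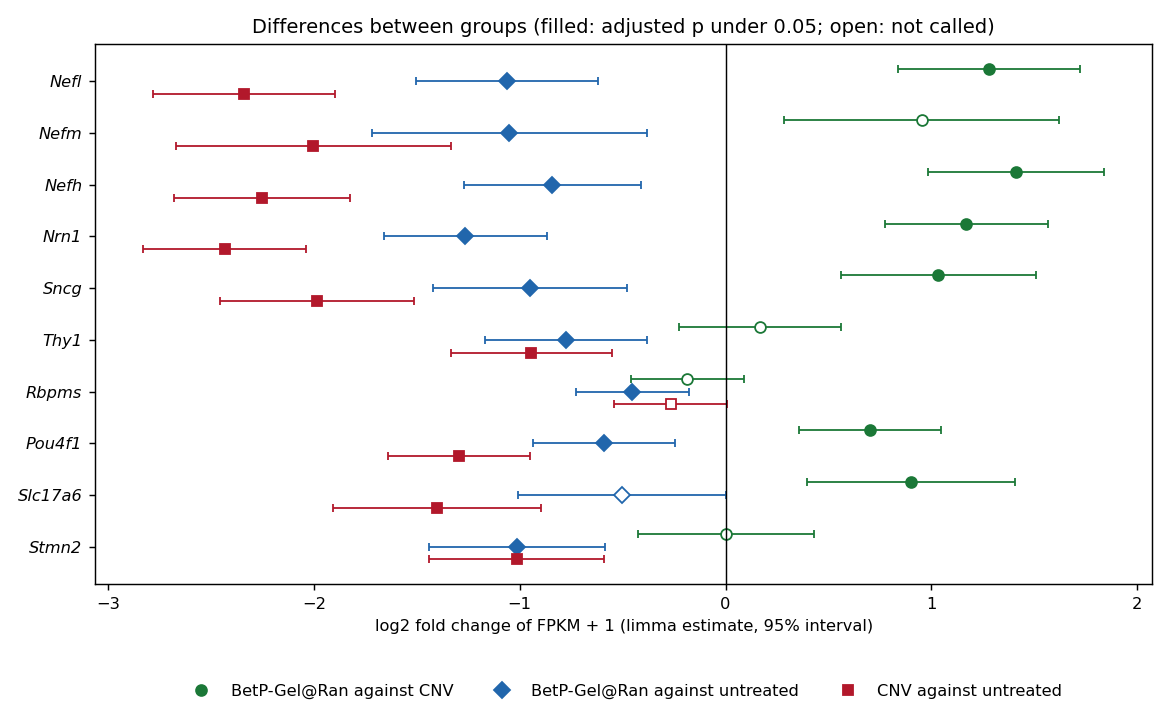
Difference in mean log2(FPKM + 1) of each gene in the 3 comparisons, with 95% intervals from limma; the vertical line marks no difference. The intervals of BetP-Gel@Ran against CNV lie right of 0 for 7 genes and cross it for Thy1, Rbpms and Stmn2, and in CNV against untreated 9 lie left of 0.

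How far each gene returned was measured as the difference between BetP-Gel@Ran and CNV divided by the difference between untreated and CNV, in percent on the log2(FPKM + 1) scale, so that 0 stands for the CNV mean and 100 for the untreated mean. It was computed for the 9 genes that fell in CNV, with 95% Fieller intervals, which carry the error of both differences. Because both use the CNV libraries, the return is a description and has no test of its own. The highest value was 64.1% for Slc17a6 (interval 32.3 to 100.2%), followed by 62.7% for Nefh (46.2 to 80.1%). Nefl returned 54.6% (38.1 to 71.5%), Pou4f1 54.4% (30.7 to 78.7%) and Sncg 52.1% (31.0 to 73.5%). Nrn1 reached 48.0% (33.7 to 62.3%) and Nefm 47.6% (16.7 to 77.9%). Thy1 reached 17.9% (-31.7 to 54.1%) and Stmn2 0.27% (-57.8 to 37.1%), and both intervals include no return. The Thy1 return was 8.33 to 23.6% with 1 library left out, lowest without CNV replicate 2, where its log2 difference was 0.07, and 11.5% without BetP-Gel@Ran replicate 1. Returns of the other genes moved with the settings too. Over the alternatives they were 55.7 to 81.9% for Slc17a6, 56.7 to 69.2% for Nefh and 49.3 to 63.6% for Pou4f1. They were 49.4 to 59.6% for Nefl, 46.3 to 57.2% for Sncg, 44.4 to 52.2% for Nrn1 and 40.1 to 57.6% for Nefm. Slc17a6 was highest without untreated replicate 2, and 69.8% with a pseudocount of 0.1.

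The median return over the 9 genes was 52.1%. The intervals of 7 genes lay above 0 and those of 8 genes below 100, and 6 genes had both. Within these 7 genes the intervals overlap, so neighbours in the order are not told apart at this number of libraries. The single BetP-Gel@Ran libraries gave 61.3, 64.0 and 62.8% for Nefh and 47.1, 60.4 and 56.4% for Nefl. The 3 libraries thus lay close together beside the width of the intervals, which also carry the spread of the CNV and untreated libraries. For Stmn2 they gave -23.3, 12.9 and 11.2%. On the linear FPKM scale the same 7 genes returned less, between 27.9% for Nefm and 48.7% for Slc17a6, with 34.0% for Nefl and 42.3% for Nefh. As a share of the untreated mean FPKM, Nefl stood at 45.9% in BetP-Gel@Ran and 18.0% in CNV. Nefh stood at 51.3% in BetP-Gel@Ran and 15.6% in CNV, and Thy1 at 56.4% in BetP-Gel@Ran and 50.1% in CNV. Thy1 thus lay nearer to untreated than Nefl in BetP-Gel@Ran although it returned less, since it had fallen less in CNV. Stmn2 stood at 44.5% in BetP-Gel@Ran and 44.2% in CNV. In BetP-Gel@Ran it thus lay close to Nefl, and it differed from Nefl mainly by its smaller fall in CNV.

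**Figure D3:**
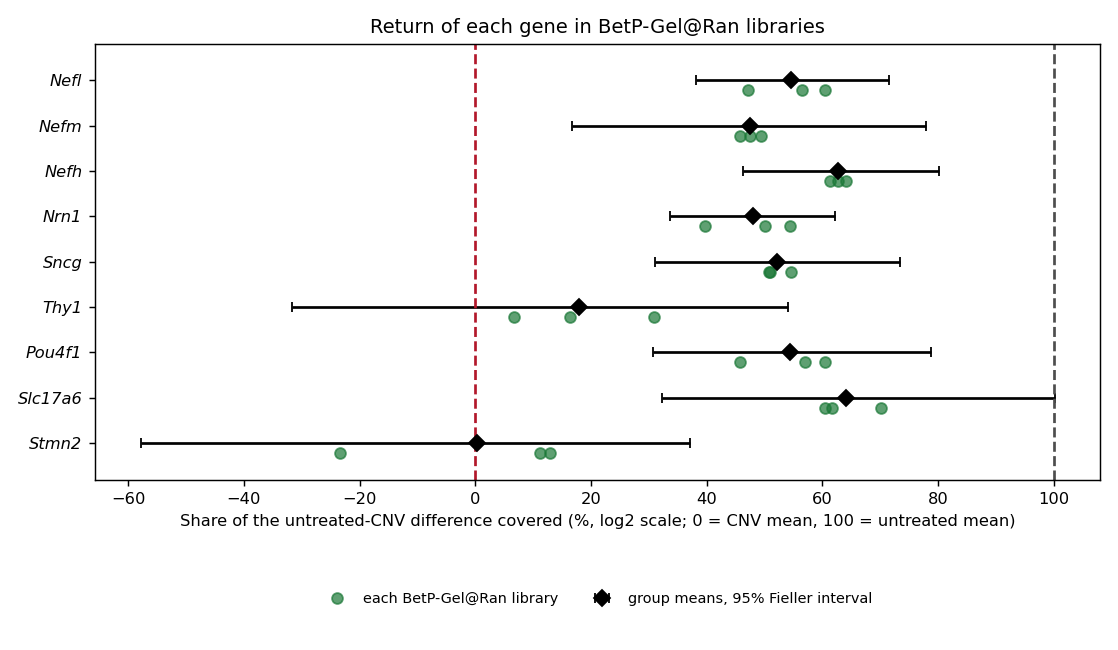
Return of the 9 genes called lower in CNV, as the percent of the untreated-CNV difference on the log2(FPKM + 1) scale that BetP-Gel@Ran covers (diamonds, with 95% Fieller intervals; circles, single BetP-Gel@Ran libraries against the group means of the others). Dashed lines mark the CNV mean at 0 and the untreated mean at 100; 7 genes lie between 47.6 and 64.1%, and Thy1 and Stmn2 at 17.9 and 0.27%.

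Ratios between genes of the same library were chosen after their values were seen and are given without a test. They restate the differences above relative to Nefl and are no further support for them. Stmn2 to Nefl FPKM was 0.169 to 0.192 in BetP-Gel@Ran, 0.389 to 0.566 in CNV and 0.170 to 0.210 in untreated libraries. Thy1 to Nefl was 0.824 to 1.14 in BetP-Gel@Ran, 2.03 to 2.09 in CNV and 0.717 to 0.784 in untreated libraries. In CNV both ratios were thus higher than in either other group, and in BetP-Gel@Ran the ratio of Stmn2 to Nefl overlapped that of untreated libraries while that of Thy1 to Nefl stayed above it. Nefh to Nefl moved the other way, with 0.260 to 0.310 in BetP-Gel@Ran, 0.190 to 0.238 in CNV and 0.240 to 0.258 in untreated libraries.

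**Figure D4:**
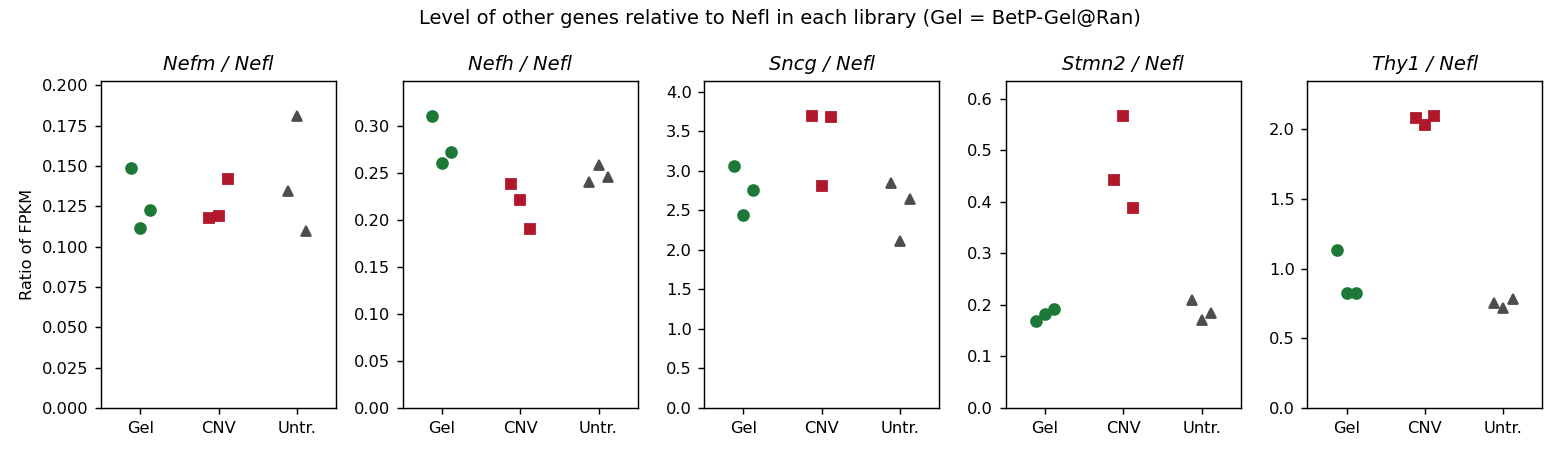
Ratio of the FPKM of Nefm, Nefh, Sncg, Stmn2 and Thy1 to that of Nefl in each library (points; BetP-Gel@Ran, CNV and untreated from left to right; each panel on its own axis from 0). The CNV points of Stmn2, at 0.389 to 0.566, and of Thy1, at 2.03 to 2.09, lie above all points of the other groups.

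Most other genes used as ganglion cell labels that could be tested were lower in CNV as well. Of 16 such genes 11 passed the filter, but Pou4f2 and Pou4f3 reached 1 FPKM in untreated libraries only and so had to be higher there. Of the other 9, 8 fell in CNV against untreated, with a median log2 change of -1.11, where 22.1% of all genes were called lower. Among these 9, Isl1, Opn4 and Chrnb3 reached 1 FPKM in no CNV library, so the filter favoured a fall in CNV for them. In BetP-Gel@Ran against CNV 5 of these 9 were called higher, with a median of 0.61, where 5.81% of all genes were called higher. In BetP-Gel@Ran against untreated 4 of the 9 were called lower, where 18.1% of all genes were. Over all 11, the count called higher in BetP-Gel@Ran against CNV was 7 and depended on the settings: it was 1 without BetP-Gel@Ran replicate 2 or CNV replicate 2, 2 without BetP-Gel@Ran replicate 3 or CNV replicate 1, and 4 without BetP-Gel@Ran replicate 1 or untreated replicate 1. It was also 2 with no filter, and 4 with a filter of 5 FPKM and with FPKM divided by its sum. Cartpt, a neuropeptide of direction-selective ganglion cells in mouse, averaged 14.3 ± 2.36 FPKM in BetP-Gel@Ran, 7.95 ± 1.54 FPKM in CNV and 42.7 ± 9.36 FPKM in untreated libraries (SD, n = 3 each). Its rise of 0.77 in BetP-Gel@Ran against CNV was called (limma adjusted p = 0.0297). Tppp3, a tubulin-binding protein, averaged 96.3 ± 8.45 FPKM in BetP-Gel@Ran, 61.6 ± 7.80 FPKM in CNV and 134 ± 10.8 FPKM in untreated libraries, and rose by 0.64 in BetP-Gel@Ran against CNV (limma adjusted p = 0.0107). Most of the summed FPKM of the 16 genes was Tppp3. That sum averaged 132 FPKM in BetP-Gel@Ran, 80.0 FPKM in CNV and 218 FPKM in untreated libraries. Rbpms2, the relative of Rbpms, averaged 5.11 ± 0.464 FPKM in BetP-Gel@Ran, 3.61 ± 0.275 FPKM in CNV and 12.8 ± 3.32 FPKM in untreated libraries. Unlike Rbpms it was called lower in CNV, at -1.55 (limma adjusted p = 0.00011), and the difference between these 2 genes was not tested; its 0.40 in BetP-Gel@Ran against CNV was not called (limma adjusted p = 0.124).

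Of 18 other genes of the neuronal cytoskeleton and axon transport, all of them tested, 16 fell in CNV with a median of -0.76, 7 were called higher in BetP-Gel@Ran than in CNV, and 12 were called lower in BetP-Gel@Ran than in untreated libraries. Over all genes, 22.1% were called lower in CNV, 5.81% higher in BetP-Gel@Ran against CNV and 18.1% lower in BetP-Gel@Ran against untreated. The count of 7 was 4 without BetP-Gel@Ran replicate 2, BetP-Gel@Ran replicate 3, CNV replicate 1 or CNV replicate 2, and the count of 12 was 7 without untreated replicate 1. Ina, alpha-internexin, which copolymerizes with the neurofilament subunits, averaged 4.80 ± 0.167 FPKM in BetP-Gel@Ran, 1.39 ± 0.186 FPKM in CNV and 9.75 ± 3.57 FPKM in untreated libraries, and rose by 1.28 in BetP-Gel@Ran against CNV (limma adjusted p = 0.00968). Kif5a, a kinesin that carries neurofilaments along axons, averaged 17.8 ± 1.104 FPKM in BetP-Gel@Ran, 7.98 ± 0.569 FPKM in CNV and 20.7 ± 2.85 FPKM in untreated libraries. It rose by 1.06 in BetP-Gel@Ran against CNV (limma adjusted p = 0.000978), and its -0.20 against untreated was not called (limma adjusted p = 0.148). Tubb3, a neuronal beta-tubulin, averaged 13.5 ± 0.745 FPKM in BetP-Gel@Ran, 8.66 ± 0.381 FPKM in CNV and 40.9 ± 13.5 FPKM in untreated libraries; it fell by 2.06 in CNV against untreated (limma adjusted p = 9.02e-05), and its 0.58 in BetP-Gel@Ran against CNV was not called (limma adjusted p = 0.0906).

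Of 12 close relatives of the 10 genes 11 were tested, Pou4f2 and Pou4f3 again among them. Of the other 9, 8 were called lower in CNV, 2 called higher in BetP-Gel@Ran against CNV and 7 called lower in BetP-Gel@Ran against untreated, and 8 of the 12 relatives also stand in the lists above. The shares of all genes called in these 3 ways were 22.1, 5.81 and 18.1%. Over all 11, the count called higher in BetP-Gel@Ran against CNV was 4, and it was 2 with no filter, with a filter of 5 FPKM, with FPKM divided by its sum, and without any 1 BetP-Gel@Ran library, CNV replicate 1 or 2, or untreated replicate 1. Stmn3, of the same family as Stmn2, averaged 83.9 ± 5.40 FPKM in BetP-Gel@Ran, 45.0 ± 8.31 FPKM in CNV and 157 ± 19.8 FPKM in untreated libraries and rose by 0.90 in BetP-Gel@Ran against CNV (limma adjusted p = 0.00839). Sncb, beta-synuclein, averaged 29.0 ± 2.68 FPKM in BetP-Gel@Ran, 20.9 ± 1.53 FPKM in CNV and 69.3 ± 19.3 FPKM in untreated libraries, and its 0.45 in BetP-Gel@Ran against CNV was not called (limma adjusted p = 0.131). Slc17a7, the VGLUT1 transporter of photoreceptors and bipolar cells, averaged 38.1 ± 4.37 FPKM in BetP-Gel@Ran, 35.0 ± 3.66 FPKM in CNV and 86.1 ± 18.7 FPKM in untreated libraries. It fell by 1.26 in CNV against untreated (limma adjusted p = 0.000272), and its 0.12 in BetP-Gel@Ran against CNV was not called (limma adjusted p = 0.635).

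Of 15 genes linked to the response to axon injury, 11 were tested. In CNV against untreated 7 were called higher and 1 lower, where 22.5% of all genes were called higher and 22.1% lower. In BetP-Gel@Ran against CNV 3 were called lower, where 8.27% of all genes were called lower. The count of 7 was 4 without CNV replicate 1 or 2 or untreated replicate 1 or 3. The count of 3 was 0 without BetP-Gel@Ran replicate 2 or CNV replicate 2 and with no filter, and 1 without BetP-Gel@Ran replicate 3 and in the 2-group fit. Atf3, a stress factor induced in injured neurons and in many other cells, averaged 5.84 ± 1.44 FPKM in BetP-Gel@Ran, 13.1 ± 5.12 FPKM in CNV and 2.18 ± 0.524 FPKM in untreated libraries. It rose by 2.11 in CNV against untreated (limma adjusted p = 0.000204), fell by 1.01 in BetP-Gel@Ran against CNV (limma adjusted p = 0.0300) and rose by 1.097 in BetP-Gel@Ran against untreated (limma adjusted p = 0.00885). Jun, an AP-1 subunit, averaged 22.9 ± 2.91 FPKM in BetP-Gel@Ran, 36.0 ± 5.84 FPKM in CNV and 17.8 ± 1.78 FPKM in untreated libraries and fell by 0.63 in BetP-Gel@Ran against CNV (limma adjusted p = 0.0207). Neither gene is limited to neurons, and which cells made these transcripts cannot be read from whole tissue.

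Among the other retinal neurons, some amacrine genes passed the test and no bipolar gene did. Amacrine cells share the inner retina with ganglion cells; of 9 tested, 6 fell in CNV against untreated and 4 were called higher in BetP-Gel@Ran than in CNV, a count that was 1 without BetP-Gel@Ran replicate 2 or CNV replicate 1 and 2 without BetP-Gel@Ran replicate 3, without CNV replicate 2 or with no filter. Against untreated, 3 of the 9 were called lower in BetP-Gel@Ran and 1 higher, where 18.1% of all genes were called lower and 16.1% higher. These counts rest on few genes and are given as description. Of all genes, 22.1% were called lower in CNV against untreated and 5.81% higher in BetP-Gel@Ran against CNV. Calb2, calretinin, which ganglion cells make too, averaged 69.2 ± 3.80 FPKM in BetP-Gel@Ran, 25.8 ± 7.82 FPKM in CNV and 214 ± 59.96 FPKM in untreated libraries, and rose by 1.43 in BetP-Gel@Ran against CNV (limma adjusted p = 0.00987). Calb2 made up much of the amacrine sum, which averaged 117 FPKM in BetP-Gel@Ran, 59.1 FPKM in CNV and 270 FPKM in untreated libraries. Of 6 bipolar genes tested, none was called in any comparison by limma or limma voom, and 0 had an unadjusted p under 0.05; 1 was called lower in CNV and in BetP-Gel@Ran against untreated without untreated replicate 1, and 1 higher in BetP-Gel@Ran against untreated without BetP-Gel@Ran replicate 1. The list summed to 33.1 to 36.0 FPKM in BetP-Gel@Ran, 34.1 to 40.9 FPKM in CNV and 31.05 to 39.8 FPKM in untreated libraries. Of 12 rod genes, 10 fell in CNV against untreated with a median of -1.30, none was called by limma in BetP-Gel@Ran against CNV, and 9 were called lower in BetP-Gel@Ran than in untreated. In BetP-Gel@Ran against CNV, 5 rod genes were higher at an unadjusted p under 0.05, and 2 were called with limma voom and without untreated replicate 3.

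Set against these lists within each library, the summed FPKM of the 10 genes, in which Sncg is the largest part, separated the groups by some yardsticks only. It was 4.99 to 5.18 times the bipolar sum in BetP-Gel@Ran, 2.33 to 3.12 times in CNV and 6.46 to 12.8 times in untreated libraries, without overlap. Relative to pan-neuronal genes it was 3.32 to 3.68 in BetP-Gel@Ran, 3.18 to 4.40 in CNV and 3.17 to 3.395 in untreated libraries, so all groups overlapped. Relative to rod genes it was 0.0555 to 0.0725 in BetP-Gel@Ran, 0.0451 to 0.0472 in CNV and 0.0501 to 0.0821 in untreated libraries, with CNV lowest and the other groups overlapping. Relative to amacrine genes it was 1.49 to 1.53 in BetP-Gel@Ran, 1.496 to 2.05 in CNV and 1.26 to 1.35 in untreated libraries, with untreated lowest and the other groups overlapping. Much of the amacrine sum was Calb2, which ganglion cells make too, so this yardstick is not limited to amacrine cells. The peripheral neuron list summed to 65.98 to 74.6 FPKM in BetP-Gel@Ran, 39.2 to 69.7 FPKM in CNV and 44.6 to 48.5 FPKM in untreated libraries. Nearly all of it was Npy, a neuropeptide, its 1 tested gene, which was 0.56 higher in BetP-Gel@Ran against untreated (limma adjusted p = 0.0426), while Scn10a was at 0 in all 9 libraries. Of the horizontal cell markers the 1 tested gene was Calb1, calbindin, which is not limited to these cells. It fell by 1.48 in CNV against untreated (limma adjusted p = 0.000114) and rose by 0.73 in BetP-Gel@Ran against CNV (limma adjusted p = 0.0214), while Lhx1 and Onecut1 averaged 0.05 FPKM or less in the 3 groups. The part of these cells in the results above was not tested.

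**Figure D5:**
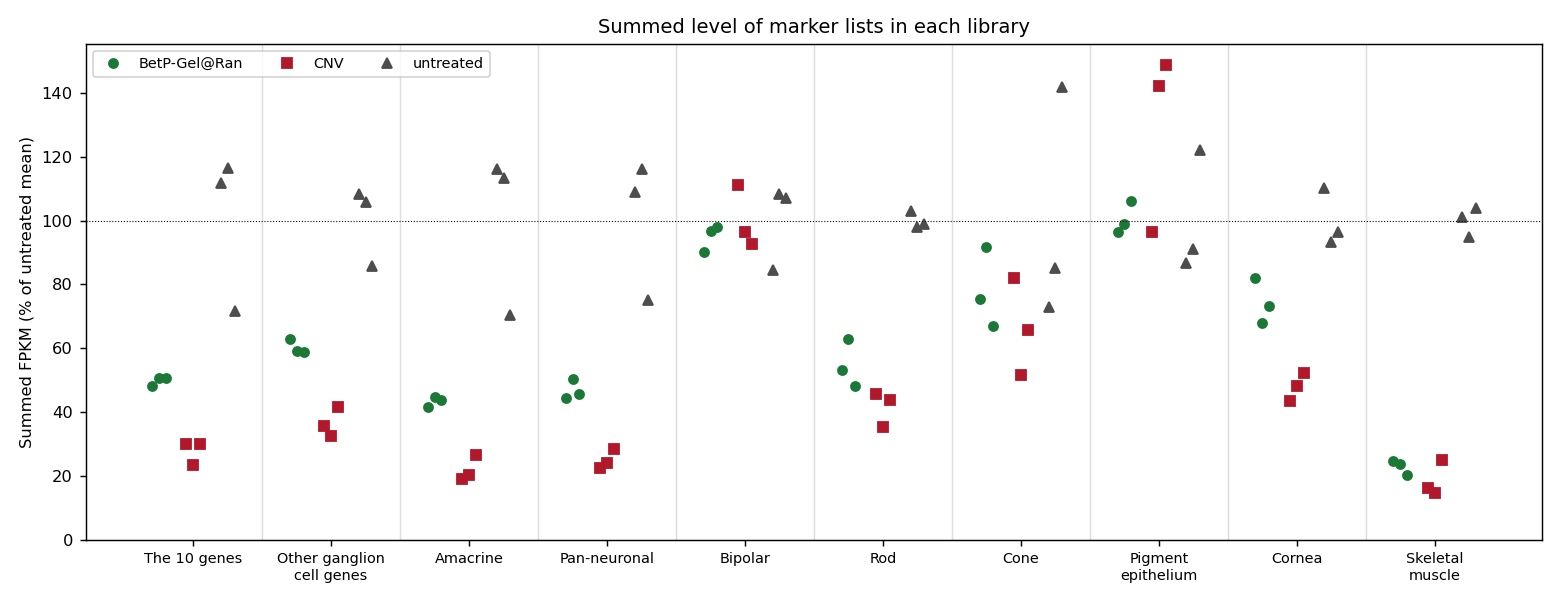
Summed FPKM of the 10 genes and of 9 marker lists in each library, as a percent of the list's untreated mean (y axis; the dotted line marks 100), with BetP-Gel@Ran, CNV and untreated points from left to right in each column. The 10 genes and the other ganglion cell, amacrine and pan-neuronal lists sit in 3 separate bands, with the 10 genes averaging 49.9% in BetP-Gel@Ran and 27.7% in CNV, while the bipolar points overlap around 100. Much of the amacrine sum is Calb2, which ganglion cells make too, and most of the other ganglion cell sum is Tppp3.

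Across the 9 libraries, the mean standardized profile of the 10 genes was followed most closely by Nefm (Pearson r = 0.984), Nefl (0.983) and Pou4f1 (0.976) and least by Rbpms (0.536). These r are descriptions over 9 libraries that fall into 3 groups, and the members are part of the mean they are compared with. Outside the set, the closest genes included Nsg2, Gdap1l1, Zcchc18, Apba2, Tubb4a, Prkar1b, Arhgap44, Prepl and Ndrg4, with r between 0.991 and 0.996. Nsg2, a protein of neuronal endosomes, averaged 7.35 ± 0.570 FPKM in BetP-Gel@Ran, 3.57 ± 0.509 FPKM in CNV and 19.6 ± 5.61 FPKM in untreated libraries. A profile of this kind was common, as 939 of 14086 genes had r of at least 0.9.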

How the data were processed

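Per the labels' protocols, poly-A RNA from flat mounts was made into libraries, 9 in all, with a kit that does not mark strand and sequenced on an Illumina instrument. The authors deposited FPKM per gene; counting with HTSeq 0.6.0 on mm10 is named in the submitters' processing notes, and the aligner and its settings are not given in the sources used here. FPKM times gene length came out as whole multiples of 1 read for 100% of values (tolerance 0.05, up to 5000 reads), which gave each library's depth of 16990118 to 18753737 reads on genes. A gene was tested if 3 or more of the 9 libraries had 1 FPKM or more (14086 genes), as log2(FPKM + 1), a scale that understates the change of low genes, with limma 3.58.1 (trend and robust options, statmod 1.5.0, R 4.3.3): 1 mean per group, all 9 libraries, two-sided, Benjamini-Hochberg adjusted within each comparison, threshold 0.05. In data simulated for CNV against untreated over 14086 genes, this fit called 89% of genes shifted by 1 log2 unit and 40% of those shifted by 0.5. Only a small share of genes was shifted there, whereas 44.6% were called in the real comparison. These percentages therefore do not give the power of the real fit. Replicates of a group differed by far more than counting error (chi-square of 8.34 to 43.7 per gene), so none was counted as a duplicate. Same-numbered libraries of different groups did not deviate together (r -0.15 to 0.08), and the main fit did not pair them. These r cannot show whether equal numbers share an origin. All 10 genes are named in each comparison; of the other lists, genes with the smallest p (cytoskeleton, ganglion cell, relatives, axon injury) or highest FPKM (other cells) are named, and the 10 genes with the highest r. The 10 genes, the lists and the tests were chosen with earlier results of these data known. Gene positions are those of the deposited table, and exon overlaps come from GENCODE M21. Alternatives covered the pseudocount, filter, scaling, fit, replicate block, limma voom on whole reads and each library left out. Some genes that these rules name are not reported here.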

Additional observations from a re-analysis of the deposited data

How the results depend on the processing

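Over 18 alternatives the 30 results for single genes gave 534 values, of which 497 kept their direction and side of the threshold, 26 lost the call, 8 gained it and 3 reversed. The 3 were Stmn2 in BetP-Gel@Ran against CNV, at -0.0616 without BetP-Gel@Ran replicate 2, -0.05 without BetP-Gel@Ran replicate 3 and -0.06 without CNV replicate 3, with returns of -6.07, -5.19 and -6.29% (highest with 1 library left out, 0.12 and 12.1%); its main value lies at 0.00, and the cause was not tested. With 1 library left out, genes of the set called higher in BetP-Gel@Ran against CNV numbered 3 to 7, and the median return was 46.3 to 57.6%. Over all genes, BetP-Gel@Ran against CNV gave 818 higher and 1165 lower, 263 and 590 with no filter, and 537 and 652 in the 2-group fit; with 1 library left out it gave 126 to 1457 higher and 320 to 1758 lower. With a filter of 5 FPKM, 1735 genes were higher in CNV against untreated (3166 with the filter of 1 FPKM) and 1337 in BetP-Gel@Ran against untreated (2265), since fewer genes were tested; that filter also removes Pou4f1 and Slc17a6. FPKM divided by its sum gave 1543 lower in BetP-Gel@Ran against untreated (2548), and leaving out 1 library gave 1438 to 2482 higher. A replicate block gave 523 higher in BetP-Gel@Ran against CNV and 9, 6 and 9 calls among the 10 genes. It also gave 4 in place of 7 axon injury genes higher in CNV against untreated. For other ganglion cell genes higher in BetP-Gel@Ran against CNV it gave 4 in place of 7. Whether equal numbers share an origin is not known (same-number r of -0.148 to 0.0841), and not every library correlated best with its own number. The low genes Pou4f1 and Slc17a6 rest on the fewest reads. The causes of these differences were not tested.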
